A study of Mus musculus with 2 samples.

Results

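The genes described here encode 35 proteins that recognise and repair damaged DNA, among them the Fanconi anaemia complexes, and they were taken as a list of symbols. Of these, 34 were measured in the study, out of 20433 named genes on the array, of which 14273 were measured. Rad51c was not analysed here. The study compared 2 stable lines of ATDC5, a mouse chondrocyte cell line. Lentiviral vectors had been used to overexpress GFP, an inert fluorescent control, in one of them and HES1, a repressor of transcription that Notch signalling induces, in the other. Each line was grown for 3 days as a monolayer in 60 mm dishes, and its RNA was hybridised to 1 single-colour Agilent array. The labels do not say whether a line came from 1 clone or which promoter drove the transgene.

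With 1 array per line there is no test and no p-value, and differences between cultures were not measured. A gene counted as lower or higher where its 2 signals differed at least 2-fold, that is by 1 or more on the log2 scale. A gene counted as measured where its probe was well above background, by the scanner software's flag, on at least 1 array. Signals are in scanner units with the 75th percentile of both arrays set to 1057.2, and serve to compare arrays, gene by gene, not to compare genes. The error model of the scanner software put the technical uncertainty of a log2 difference at a median of 0.20. Spots well above background made up 54.6% of the GFP array and 56.6% of the other. Neither array gave the mouse Hes1 probe a signal well above background (10.2 and 10.3). It therefore checked neither label, and the second line is called the line labelled HES1. Of 16 chondrocyte markers 13 were measured, including Col2a1 (13796 in the GFP line and 7379 in the line labelled HES1) and Sox9 (3683 and 3227). Their median log2 difference was -0.37, with 11 below 0. Of the 13, 3 were at least 2-fold lower (Ucma, Cytl1 and Sox6) and 1 at least 2-fold higher, Col9a3 (25.2 and 269.7). Sox6 (57.7 and 28.1) was not well above background in the line labelled HES1, nor was Col9a3 in the GFP line. With each such signal set to the dimmest one well above background on its array, 2 were at least 2-fold lower and 1 higher.

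Cells repair a broken or crosslinked DNA strand by several routes that share parts. Homologous recombination copies the lost sequence from the sister chromatid: the MRN complex and its partners trim the broken end, BRCA1 and BRCA2 with their partners prepare it for pairing with the intact copy, and helicases resolve the joined molecules. At an interstrand crosslink the Fanconi core complex attaches ubiquitin to the FANCD2-FANCI pair, which calls in nucleases and recombination proteins. End joining by the Ku proteins instead reseals a break without a template. Many genes of recombination and crosslink repair are transcribed mainly in S and G2 phase under E2F factors, while end-joining genes are used throughout the cell cycle.

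As a list the repair genes were lower in the line labelled HES1. Of the 34 genes, 5 passed 2-fold toward lower signal, 0 were at least 2-fold higher and 29 lay within 2-fold. Among all named genes measured, 4.95% were at least 2-fold lower and 11.1% at least 2-fold higher. Those shares include genes well above background on 1 array alone. With a filter for both arrays, 577 of 13076 genes were at least 2-fold lower and 920 at least 2-fold higher. Of the 33 repair genes left by that filter, 4 were lower and 0 higher. The 5 were Fancd2, Chek1, Fanci, Fanca and Fancb, so 4 of them belong to the Fanconi complexes. The median log2 difference of the 34 was -0.44, against -0.06 over all named genes measured, and 28 of the 34 lay below 0 (55% of all genes did). By more than 2 scanner errors, 16 were lower and 1 was higher, where the shares among all genes were 21.5% and 18.8%. At 1.5-fold 11 were lower and 1 was higher, against 14.6% and 17.4% of all genes. The 2-fold count depended on the processing. After differences had been fitted by loess on mean signal it was 2, with 3.64% of all genes at least 2-fold lower. After a normexp background correction with quantile normalization it was 1, with 2.4% of all genes. The loess fit raised the median of all genes from -0.06 to 0.08. In RNA from whole cultures, fewer cells of a kind, such as cells in S phase, and less RNA per cell cannot be told apart. Relative to the median of all genes, the median of the repair genes was -0.37 as reported, -0.36 after loess and -0.30 after normexp.

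**Figure D1:**
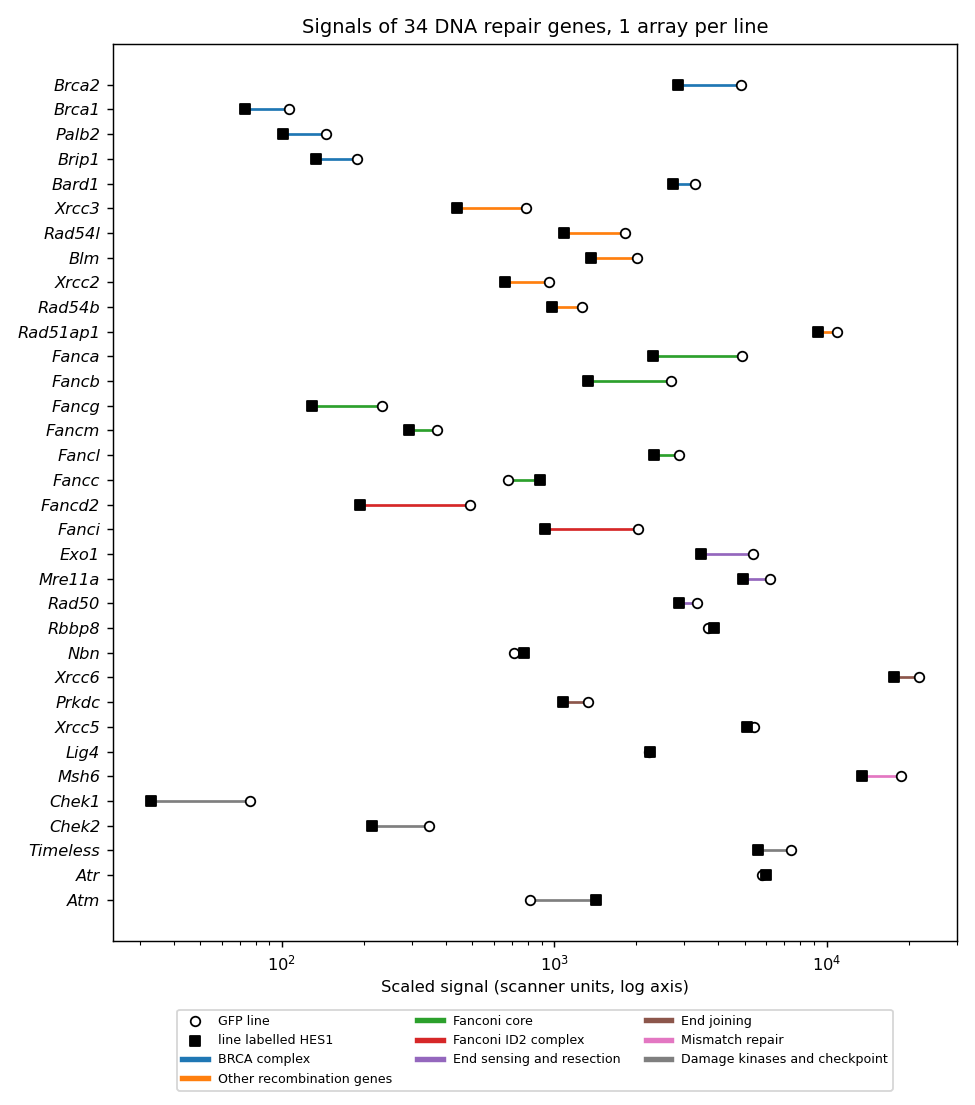
Scaled signal of each of the 34 measured repair genes in the GFP line (open circles) and in the line labelled HES1 (black squares), 1 array each, on a log axis in scanner units and coloured by role. Signals are to be compared along a row; wide gaps toward lower signal are those of Fancd2, Fanci and Fanca, Chek1 was not well above background in the line labelled HES1, and Atm shows the widest gap the other way.

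Of the 5 genes past 2-fold, 4 were listed genes of the Fanconi complexes. At 1.5-fold the 11 lower genes were these 4 and Fancg, beside Brca2, Xrcc3, Rad54l, Exo1, Chek1 and Chek2. Of the 8 listed genes of the core and FANCD2-FANCI complexes, 4 were at least 2-fold lower, with a median of -0.93. Of the 26 other repair genes measured, 1 was, with a median of -0.38. Fancd2, which receives the ubiquitin mark that starts crosslink repair, went from 489.9 in the GFP line to 193 in the line labelled HES1, or 2.54-fold lower. Its difference was -1.34 on the log2 scale (scanner error 0.22), the lowest of the list as reported but not with quantile normalization or loess, where Chek1 was lower, nor after normexp, where Fanci and Fanca were, and 2.17% of all genes measured had a lower one. Its partner Fanci went from 2031 to 927, or 2.19-fold lower. Both partners thus passed 2-fold.

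Members of the Fanconi core complex, the ubiquitin ligase assembly that marks this pair, lay on both sides of 0. Fanca, a structural subunit of the core, went from 4874 to 2298 (2.12-fold lower). Fancb, an X-linked subunit that works beside the catalytic one, went from 2688 to 1333 (2.02-fold lower). That value lies at the 2-fold line, and with quantile normalization its log2 difference was -0.9994. Fancg, which bridges subunits of the core, was below 2-fold at 233 and 129, a difference of -0.85. The ubiquitin ligase subunit Fancl (2873 and 2315) and the DNA translocase Fancm (369.5 and 292) differed by -0.31 and -0.34, both within 2 scanner errors. A second Fancl probe gave -0.32. Fancc was the core gene on the other side of 0, at 678 and 884, a difference of 0.38, and its second probe gave 0.36, both within 2 scanner errors. Subunits of 1 complex therefore spanned from -1.08 to 0.38.

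Promoter sequences of the Fanconi genes are shown because members of 1 pathway differed by unequal amounts between the lines. RefSeq windows of mouse build GRCm38.p6, 250 bases before and 50 bases from the transcript start, matched 27 of the 35 genes. Fancd2 had no window, so its promoter is not shown. The 200 bases before the start are given 5′ to 3′ for 3 genes at least 2-fold lower (Fanca, Fancb and Fanci), for Fancm and for Fancc. Capitals mark the letters searched for E2F factors (any of TTCCCGC as well as TTCGCGC and also TTGCCGC together with TTGGCGC, on either strand).
Fanca (chr8:123318577-123318776, minus strand): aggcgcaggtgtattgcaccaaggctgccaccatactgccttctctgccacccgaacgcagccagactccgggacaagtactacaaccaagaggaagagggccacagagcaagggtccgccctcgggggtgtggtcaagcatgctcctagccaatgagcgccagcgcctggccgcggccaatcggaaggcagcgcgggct
Fancb (chrX:164980392-164980591, plus strand): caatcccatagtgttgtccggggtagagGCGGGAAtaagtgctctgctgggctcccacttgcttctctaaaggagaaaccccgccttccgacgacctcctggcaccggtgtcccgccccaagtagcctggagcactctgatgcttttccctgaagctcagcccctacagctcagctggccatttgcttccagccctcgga
Fanci (chr7:79392138-79392337, plus strand): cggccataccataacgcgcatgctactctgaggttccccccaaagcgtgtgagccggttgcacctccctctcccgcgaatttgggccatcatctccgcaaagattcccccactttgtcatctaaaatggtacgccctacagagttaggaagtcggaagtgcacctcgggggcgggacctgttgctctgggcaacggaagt
Fancm (chr12:65075403-65075602, plus strand): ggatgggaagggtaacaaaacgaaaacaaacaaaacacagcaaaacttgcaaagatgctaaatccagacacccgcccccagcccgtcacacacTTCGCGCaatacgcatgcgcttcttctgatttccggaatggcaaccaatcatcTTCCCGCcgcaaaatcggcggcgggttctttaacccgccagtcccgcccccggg
Fancc (chr13:63431746-63431945, minus strand): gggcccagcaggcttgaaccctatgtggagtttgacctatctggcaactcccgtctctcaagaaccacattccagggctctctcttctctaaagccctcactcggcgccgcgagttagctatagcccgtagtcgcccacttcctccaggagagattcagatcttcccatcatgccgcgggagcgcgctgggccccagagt
Fancb held 1 such match and Fancm 2 in the stretch shown, and Fanca and Fancc none. In Fanci the match lay 19 bases into the transcript, outside the stretch. In the same stretch of the other Fanconi genes with a window, Fancg held 1 match and Fancl none.

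Over all 27 windows, 17 (63.0%) held the E2F letters. The share was 15.9% among 11372 measured genes with a window and 9.72% among all 27025 genes of the table. It was 65.6% among 32 DNA replication genes and 23.5% among 34 mitosis genes. The letters of the CHR element, through which the DREAM and MYB-FOXM1 complexes act on mitotic genes (TTTGAA or CTTGAA, either strand), showed another order. They lay in 7 of the 27 repair windows (25.9%) and in 26 of the 34 mitosis windows (76.5%), against 20.7% of measured genes. Among the 4 windows of genes at least 2-fold lower, which leave out Fancd2, 3 held the E2F letters and 0 the CHR letters. Among the other 22 measured repair genes with a window, 13 and 7 did. Letters of sites that HES1 binds were also counted. The class C site (CACGCG or CACGAG) lay in 25.9% of the repair windows and 23.02% of measured genes. The N box (CACNAG, which includes CACGAG) lay in 33.3% and 40.6%. The CCAAT box, bound by NF-Y and not a HES1 site, lay in 63.0% and 39.02%. These are matches of letters in a short window, not binding sites.

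**Figure D2:**
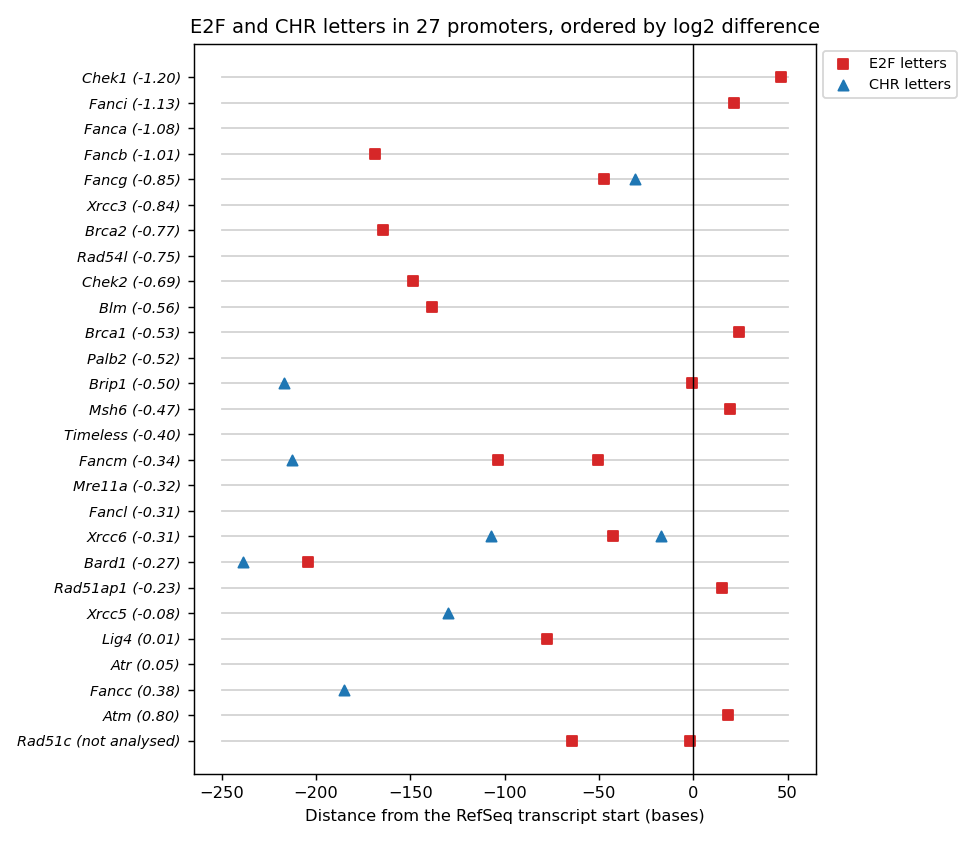
Positions of E2F letters (red squares) and CHR letters (blue triangles) in the 27 repair gene promoters, as distance in bases from the RefSeq transcript start, with each gene's log2 difference in brackets and genes ordered by it. E2F letters occur from Chek1 at the top to Atm near the bottom, and also in Rad51c, which was not analysed and takes the bottom row. Of the 27 windows, 7 hold CHR letters.

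The measured genes of the BRCA group and of the group that acts in strand pairing were all below 0, and 0 of them reached 2-fold. In the BRCA group all 5 were below 0, with a median of -0.52. Brca2, a mediator of recombination on single-stranded DNA, went from 4840.0 to 2848, a difference of -0.77 (1.70-fold lower). Palb2, which ties BRCA2 to BRCA1, had a difference of -0.52 (145 and 101). Its dimmer second probe, well above background in the line labelled HES1 alone, went the other way (49.7 and 59.6). Brip1, a helicase that binds BRCA1, was at -0.50 (188 and 133). Brca1 gave a dim signal of 106 and 73.0, and its difference of -0.53 was within 2 scanner errors. Bard1, the partner with which BRCA1 forms a ubiquitin ligase, was at -0.27 (3294 and 2738), and its other probes gave -0.15 and 0.10.

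In the other group, which acts in strand pairing and its resolution, all 6 measured genes were below 0 with a median of -0.55. Xrcc3, which acts in homologous recombination, was the lowest at 786 and 438 (1.79-fold lower). Rad54l, a motor protein that promotes strand pairing with the intact duplex, went from 1823 to 1082 (1.68-fold lower). Xrcc2, a further recombination gene, was at -0.54 (956 and 659), and at -0.74 by its second probe. Blm, the helicase that dissolves joined molecules, was at -0.56 (2014 and 1367). The related motor gene Rad54b was at -0.36 (1260.3 and 983) and Rad51ap1, an accessory factor of strand pairing, at -0.23 (10887 and 9313), both within 2 scanner errors.

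**Figure D3:**
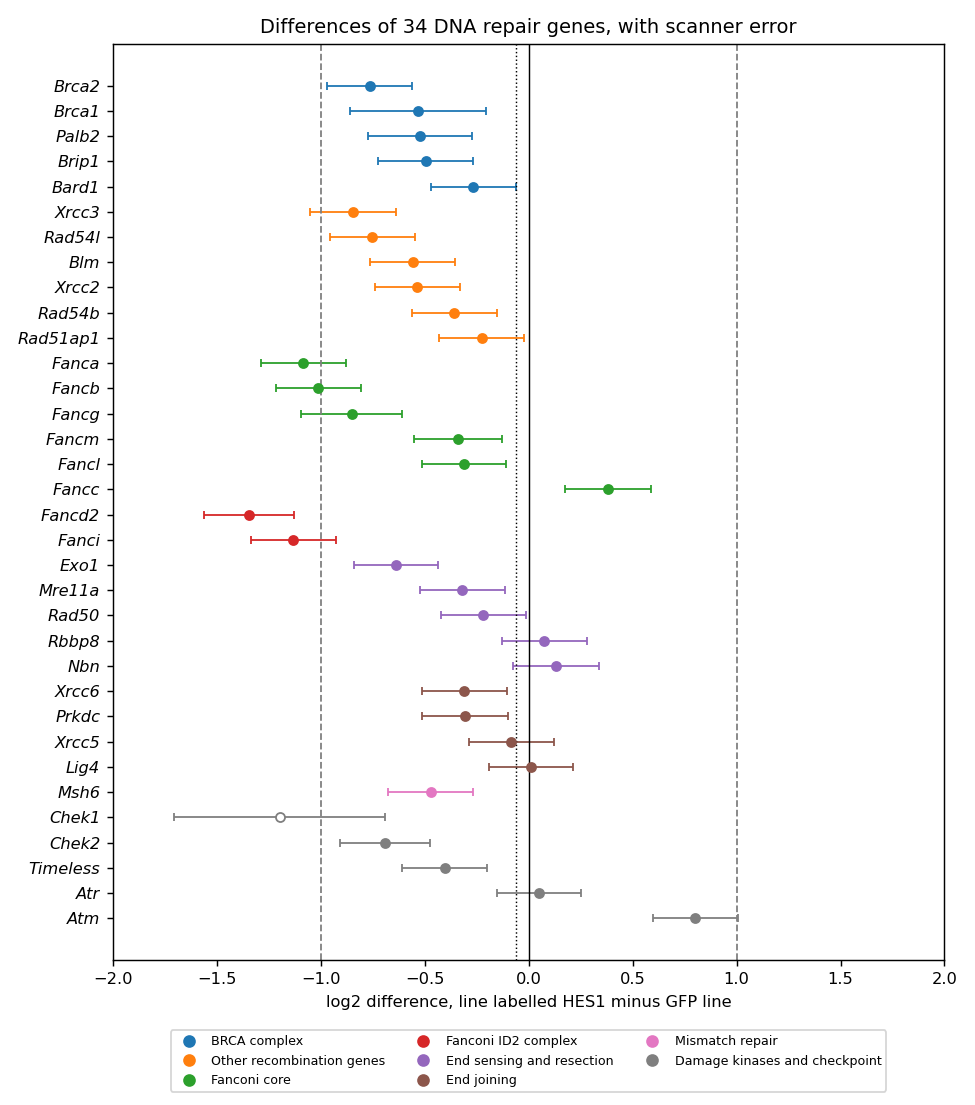
Log2 difference of each measured repair gene (line labelled HES1 minus GFP line), with the scanner software's error as bars, grouped and coloured by role. Dashed lines mark 2-fold and the dotted line the median of all named genes at -0.06; the open point is Chek1, which was well above background in the GFP line alone. All 5 BRCA genes and all 6 genes of the other recombination group lie left of the dotted line, and the 4 end-joining genes lie between -0.31 and 0.01.

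Genes that act at the broken end before the choice of route differed less. In the group for end sensing and resection the median was -0.22 over 5 genes. Of the MRN complex, which binds and tethers the ends, Mre11a had signals of 6173 and 4945 (-0.32), Rad50 of 3332 and 2865 (-0.22) and Nbn of 709 and 776 (0.13). Rbbp8, which encodes the resection factor CtIP, was at 0.08 (3655 and 3853). All 4 lay within 2 scanner errors. Exo1, the nuclease of long-range resection and of mismatch repair, stood apart from them at 5361 and 3445, or 1.56-fold lower. Msh6, a mismatch recognition subunit, was at -0.47 (18698 and 13483).

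The 4 listed end-joining genes were all within 2 scanner errors. Their median was -0.20, against -0.06 over all named genes measured and -0.22 in the group for end sensing and resection. Xrcc5 and Xrcc6 encode the Ku subunits that cap a broken end; Xrcc5 was at -0.08 (5418 and 5111) and Xrcc6 at -0.31 (21844 and 17620.4). Lig4, the ligase that seals the break, had signals of 2223 and 2240.5. Prkdc, the catalytic subunit of the DNA-dependent kinase, was at -0.31 (1333 and 1078), and its 9 spots per array gave an SD of 0.05 between spots.

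The damage kinases and checkpoint genes went in both directions. Atm, the kinase that answers double-strand breaks, was higher in the line labelled HES1, at 1421 against 816 (1.74-fold). A second Atm probe gave 403 against 233, a difference of 0.79 with an SD of 0.12 over 10 spots. This was the highest difference of the list, the one repair gene higher by more than 2 scanner errors, and it lay below 2-fold in each way of processing that was run. Atr, the kinase that answers stalled replication forks, was at 0.05 (5783 and 5985). Chek2, the kinase activated by ATM, went from 346 to 215, or 1.61-fold lower. Chek1, the kinase activated by ATR, gave a dim 76.0 in the GFP line and 33.1 in the line labelled HES1, where it was not well above background. Its measured difference of -1.20 had a scanner error of 0.51 and becomes at least 1.95-fold lower as a bound, set against 39.0, the dimmest signal on that array that was well above background. By bounds the list thus held 4 genes at least 2-fold lower, where 4.47% of all genes were. After normexp the Chek1 difference was -0.28. Timeless, a fork protection protein that helps activate CHK1, was at -0.40 (7375 and 5577).

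Probes of the same gene mostly went together. Of 9 repair genes with several probes, 7 had all of them on 1 side of 0, and the exceptions were Palb2 and Bard1. The other 25 measured genes rest on 1 probe each, among them all 5 that passed 2-fold.

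Related genes outside the list also had medians below 0, route by route at other levels than the listed ones. The 32 measured genes of homologous recombination beyond the list had a median of -0.40, with 3 past 2-fold toward lower signal and 0 toward higher. The 3 were Dna2, a resection nuclease (2.48-fold lower), Mnd1, a recombination accessory factor (2.45-fold), and the recombination gene Rad51d (2.08-fold). The 15 other Fanconi genes, which include further core subunits such as Fance and Fancf, had a median of -0.34. Of these, 0 passed 2-fold in either direction, and the 8 listed had a median of -0.93. In that list Mad2l2, a subunit of polymerase zeta and of shieldin, differed the most, at 7379 against 4217 (1.75-fold higher). The other end-joining list, with polymerase theta, had a median of -0.44 over 13 genes, 7 of them lower by more than 2 scanner errors, beside -0.20 and none for the 4 listed. It held 1 gene at least 2-fold lower, Polq, the polymerase of microhomology-mediated joining (2.13-fold).

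Repair routes that act on single damaged bases or bulky lesions held 0 genes past 2-fold. Base excision repair genes had a median of -0.31 over 13 genes, with the replicative ligase gene Lig1 at -0.88. Translesion synthesis genes had a median of -0.36 over 9, with the polymerase gene Polh at -0.85. The 20 nucleotide excision repair genes had a median of -0.01, and the lowest was Uvssa, a factor of transcription-coupled repair, at -0.91 (165 and 87.9). Their median was the one closest to 0 among the related lists.

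In the mismatch repair list 1 gene was far out. Msh3, a mismatch repair gene whose protein recognises small loops, went from 5791 in the GFP line to 37175 in the line labelled HES1, or 6.42-fold higher. Its other probes gave differences of 2.78 and 2.16. Msh5, a meiotic relative of the mismatch genes, was 2.03-fold lower. The 5 remaining genes of the list were all within 2-fold.

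Among 26 other damage signalling and checkpoint genes, 3 were at least 2-fold lower and 1 higher, with a median of -0.28. Cdc25b and Cdc25c, phosphatases that activate the mitotic cyclin-dependent kinase and are restrained by CHK1, were 3.21-fold and 2.44-fold lower. H2ax, the histone variant phosphorylated around breaks, was 2.56-fold lower (15629 and 6095). Rad9a, a subunit of the checkpoint clamp, was 3.05-fold higher (3023 and 9209.5).

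Cell cycle genes differed along with the repair genes. Of 41 mitosis genes, 35 were at least 2-fold lower and 0 higher, with a median of -1.31. The proliferation antigen gene Mki67 was at 29151 and 8203, the mitotic kinase gene Aurkb was 3.71-fold and the cyclin gene Ccnb2 3.48-fold lower, and Cenpf at least 2.34-fold lower. DNA replication genes had a median of -0.37 over 40 genes, with 1 past 2-fold toward higher signal and 2 toward lower. Those 2 were the nucleotide synthesis genes Tk1 and Rrm2, both 2.29-fold. Among 20 E2F, DREAM and MYB-FOXM1 factors the median was -0.34 and 4 were at least 2-fold lower. E2f8 and E2f7, repressor E2Fs that are themselves made in S phase, were 3.05-fold and 2.52-fold lower. Foxm1, a factor for mitotic genes, was 2.10-fold lower and the pocket protein gene Rbl2 2.05-fold. The part of the mitosis genes' difference in that of the repair genes was not tested.

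**Figure D4:**
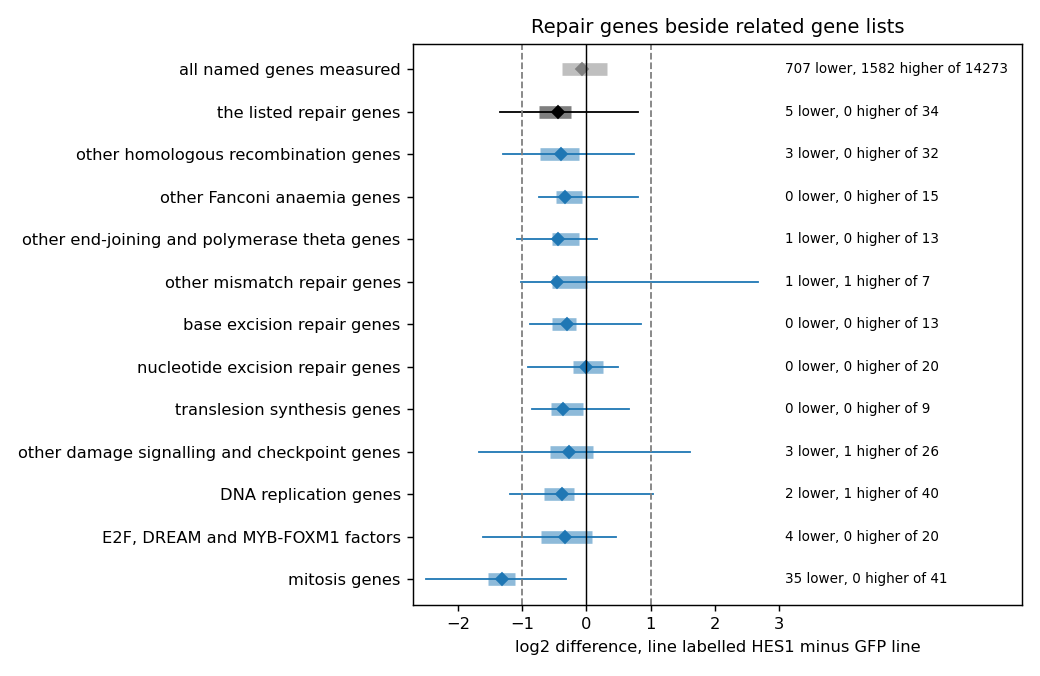
Log2 differences (line labelled HES1 minus GFP line) of the listed repair genes beside related lists and all named genes: diamonds are medians, thick bars the middle 50% of genes, thin lines the full range (left out for all genes), and dashed lines 2-fold. The repair genes (median -0.44) lie beside the DNA replication genes (-0.37), while the mitosis genes lie lower, at -1.31.

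Most markers of endothelial, adipocyte and muscle cells were not measured, while blood cell and osteoblast markers were in part. Of 10 markers of macrophages and other blood cells, 5 were measured, with a median of 0.04, and Adgre1, Tyrobp, Lyz2 and Laptm5 were not well above background on either array. The summed signal of all blood cell markers with a probe, measured or not, was 50493 in the GFP line and 25643 in the line labelled HES1. Bright probes weigh most in it, and it rests on Itgam (47669 and 22759). The other 4 measured, Cd14, Csf1r, Fcer1g and Ptprc, had differences from -0.12 to 0.92. Of the endothelial markers 2 of 6 were measured. The summed signal of all endothelial markers with a probe, measured or not, was 8567 in the GFP line and 8899 in the line labelled HES1. It rests on Kdr (8354 and 8691). Of the adipocyte markers 1 of 5 was measured, Fabp4 (130 and 80.1), and of the muscle markers 1 of 6, Acta1 (1043 and 863). Of 10 osteoblast markers 8 were measured, 3 of them at least 2-fold lower, with a median of -0.90. The part of these and of the chondrocyte markers in the repair genes' differences was not tested.

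**Figure D5:**
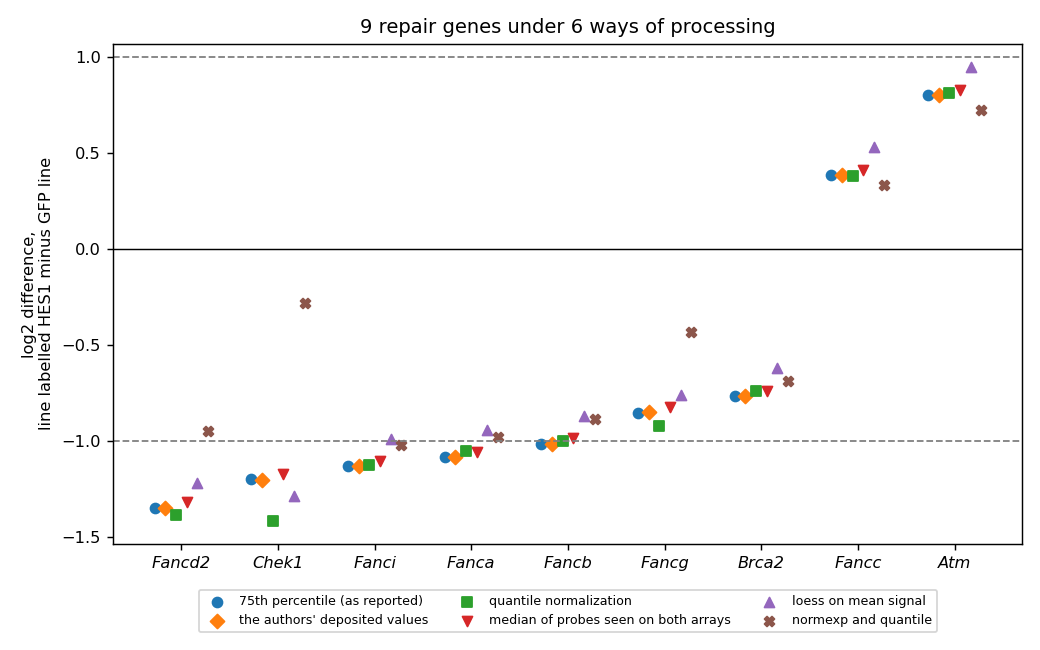
Log2 difference (line labelled HES1 minus GFP line) of 9 repair genes under 6 ways of scaling or background correction, 1 point per way, with dashed lines at 2-fold. Fanci, Fanca and Fancb stay close to the lower line under all 6, Chek1 runs from -1.41 to -0.28, and Atm stays between 0.72 and 0.95.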

How the data were processed

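Total RNA of 2 samples, 1 per line, was measured on 1-colour Agilent arrays of 1 mouse design, annotated on mm9 per the file headers. Their barcodes, per the headers, place the arrays on 1 slide. Agilent Feature Extraction 10.10.1.1 was the authors' image software, per the submitters' processing notes. Its output gives each spot an intensity that the software had corrected for background and detrended, per the file headers, without scaling between arrays. The deposited value table holds the same intensity times 1 factor per array (1.45 and 1.53), so it repeats the scaling used here.

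Processed signals were divided by their array's 75th percentile (59305 spots that are not controls) and put on the log2 scale. Spots with an outlier flag on either array (1053) were left out, and spots of a probe were averaged. Accessions were named through RefSeq (GRCm38.p6, names only), which gave a symbol to 26869 of 54948 probes. Of a gene's probes that were well above background on 1 array or both, the brightest stood for it. The scanner error of a difference combines the processed signal's error on both arrays. No test was possible with 1 array per group, whose number limits the precision, and the steps were tested on simulated data. Python 3.11.15 and limma 3.58.1 were used.

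The genes and lists were chosen with earlier results of these data known. All listed repair genes were to be named, with up to 4 genes past 2-fold per related list, or the 1 that differed the most. The cell type markers and the neighbouring genes were named outside this rule. Some genes that the rule or these lists would name are not reported here. Alternatives were quantile, median and loess scaling (span 0.3), normexp (offset 50) on median spot signals, the deposited values, a stricter and no filter on dim probes, a gene's median probe value, outlier spots kept, bounds, and thresholds of 1.5-fold and 3-fold. For promoters with several RefSeq starts the one farthest upstream was used.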

Additional observations from a re-analysis of the deposited data

How the results depend on the processing

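The count of 5 repair genes at least 2-fold lower was 4 with quantile normalization, with median scaling, with a filter for both arrays and by bounds. It was 2 after the loess fit (Fancd2 and Chek1) and 1 after normexp with quantile normalization (Fanci); the cause was not tested. At 1.5-fold 11 genes were lower and 1, Atm, was higher, and at 3-fold 0 were lower. At 2-fold 0 were higher under every alternative run. The median of the repair genes ran from -0.44 to -0.28. Of 305 values of single genes under the alternatives, 5 moved by the scanner error or more, those of Palb2, Fancg, Fancd2 and Chek1, and 0 of the called differences changed sign. Many of the 305 could hardly move, since the deposited values repeat the scaling and median scaling shifts all genes alike. For the 25 measured genes with 1 probe, the filters and the median over probes can only return the reported value or none. Fancg was at -0.43 and Fancd2 at -0.95 after normexp, and Palb2 at -0.13 as the median of its probes. No paired analysis was possible because each group has 1 array. For the same reason no array could be left out. Chek1 and Brca1 lie near the background, which limits how well they were measured.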

Other observations

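Several repair genes share a start region with a gene on the opposite strand. RefSeq places such a divergent start within 1000 bases of 12 of the listed genes, a distance chosen after the data were seen, and both genes were measured in 8 pairs. In 5 pairs the differences had the same sign, and in 3 they were opposite. The differences of Brca1, Rad51ap1, Mre11a, Xrcc6 and Lig4 lay within 2 scanner errors. Beside Palb2 and Xrcc3, the neighbours Dctn5 (-0.085) and Zfyve21 (-0.11) differed by less than the median scanner error of 0.20. The signs of all these pairs are not settled. The share of equal signs among other divergent pairs was not counted. Brca1 was at -0.53 and Nbr1, an autophagy receptor gene whose start lies 152 bases away, at 0.38. Fancb was at -1.01 and Mospd2 at 0.57 (517 and 769), with 217 bases between their starts. Rad51ap1 was at -0.23 and D6Wsu163e at 1.01 (2459.98 and 4943). Atm lies 376 bases from Npat, whose signals (10.4 and 11.2) were at background level. Tex14, a germ cell gene that lies beside Rad51c, was at background level in the GFP line (22.7) and at least 2.63-fold higher in the line labelled HES1 (100.2). Of the pairs with the same sign, Lig4 was at 0.01 beside Abhd13 at 0.06, and Xrcc6 at -0.31 beside Desi1 at -0.46. No test was run on these pairs.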
